A study of Mus musculus with 4 samples.

Results

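The integrated stress response is a program of gene expression that cells start when a kinase of eIF2α slows translation, after amino acid shortage, unfolded protein in the endoplasmic reticulum, heme shortage, viral RNA or mitochondrial damage. The mRNA of the transcription factor ATF4 is translated better under those conditions, and ATF4, often as a dimer with C/EBP proteins, turns on genes of amino acid supply and redox balance, the factors CHOP and ATF5, and the circulating hormones FGF21 and GDF15. ATF5 is also known as a regulator of the mitochondrial unfolded protein response. Described here are 10 genes of this pathway, out of 54464 genes in the count matrix, in single-nucleus RNA-Seq (snRNA-Seq) of mouse liver. They were taken as a list from the biology of the pathway, at a time when earlier results of these data were known. They were the transcription factors and regulators Atf4, Atf5, Ddit3 (which encodes CHOP) and Trib3, the enzymes and metabolic effectors Asns, Psat1, Chac1 and Sesn2, and the hormones Fgf21 and Gdf15. All 10 were found in the matrix by symbol.

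Nuclei came from 3 WT mice and from 3 mice that lack Nampt in hepatocytes (HNKO), all on the C57BL6/BomTac background. Both genotypes carried floxed Nampt, and only HNKO mice carried Alb-Cre, a recombinase under the promoter of albumin, a gene of hepatocytes. Per the study's methods the mice were females from a cohort aged 8 to 12 weeks at the start and fed a purified control diet for 6 weeks. Part of that cohort received nicotinamide riboside in the drinking water, and the sources used here do not say which water these 6 mice had. A hashtag antibody marked the nuclei of each mouse, 4250 nuclei per mouse were sorted and pooled, and the deposited table gave the mouse and the cluster of each of 5193 nuclei, all with distinct barcodes.

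The 13 clusters that the authors named as hepatocytes held 4410 nuclei, 562 to 713 per WT mouse and 812 to 847 per HNKO mouse, with 3524497 to 4448104 and 5495997 to 6635290 unique molecular identifiers (UMIs). Levels below are UMIs per 1000000 UMIs of the same sum (CPM). Markers of hepatocytes were detected in these nuclei in all mice (7 of 7 genes), but their summed level was 11241 CPM in the mouse HNKO 3 against 23554 to 29032 CPM in the others, and the 6 periportal markers stood at 1450 CPM there against 3641 to 5319 CPM. Summed markers of other liver cell types in hepatocyte nuclei were highest in HNKO 1 and HNKO 3 for stellate cells (195 and 123 CPM against 32.6 to 90.8 CPM in the other 4 mice) and for cholangiocytes (26.4 and 40.2 CPM against 7.64 to 14.7 CPM, with 1 of 5 markers at 0 in all mice). Those of endothelial, Kupffer and CD45+ cells stayed at 5.30 to 42.8 CPM. Over all mice, Reln gave 2712 UMIs to the stellate sum, beside 101 from the next marker, Ntm. Spp1 gave 521 UMIs to the cholangiocyte sum, beside 45 from the next, Sox9. The stellate and cholangiocyte sums therefore mostly describe Reln and Spp1, and not their markers as a group. HNKO 3 also had the lowest share of hashtag counts on its own hashtag, 49.0% against 66.1 to 80.3%, and a TMM scaling factor of 1.28 against 0.917 to 1.01. Nampt itself did not separate the genotypes, with 84.8 to 105 CPM in WT and 84.1 to 148 CPM in HNKO hepatocytes (log2 fold change 0.03 ± 0.27 (SE), edgeR adjusted p = 0.985). Genotype therefore rests on the deposited hashtag labels here. Fold changes of the tested genes among the 10 are given with and without HNKO 3. Whether its marker levels or hashtag share played a part in any result was not tested.

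ATF4 and C/EBP dimers are known to bind a composite DNA element, searched for here as TGATGNAA on both strands in the 250 bases before each RefSeq start site on GRCm38.p6. Windows of all 10 genes were available, and 3 of the 10 genes held a match (Asns, Chac1 and Fgf21), against 3.91% of the 27025 genes with a window. The stretches that hold it are shown because these are the targets read out by the counts of low-level genes below. The match is in capitals, and on the gene's strand it reads TTGCATCA where the element lies on the opposite strand. For Fgf21 and Chac1 the bases before the annotated gene body are given, at chr7:45615491-45615740 (minus strand) and chr2:119350992-119351228 (plus strand). For Asns, whose match lies 23 bases before the RefSeq start but inside the longer GENCODE gene body, 30 bases at chr6:7693214-7693243 (minus strand) are given.
Fgf21: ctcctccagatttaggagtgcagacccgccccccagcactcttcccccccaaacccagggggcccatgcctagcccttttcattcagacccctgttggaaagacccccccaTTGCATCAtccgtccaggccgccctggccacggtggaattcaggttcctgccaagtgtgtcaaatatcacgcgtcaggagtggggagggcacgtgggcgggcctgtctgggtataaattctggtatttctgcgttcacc
Chac1: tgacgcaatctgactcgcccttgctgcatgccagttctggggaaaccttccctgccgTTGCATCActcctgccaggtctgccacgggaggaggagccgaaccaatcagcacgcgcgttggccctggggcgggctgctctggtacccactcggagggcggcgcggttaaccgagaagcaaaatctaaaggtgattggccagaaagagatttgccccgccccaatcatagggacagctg
Asns: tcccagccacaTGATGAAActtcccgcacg
The matches lie 139, 193 and 23 bases before the start sites of Fgf21, Chac1 and Asns. The cyclic AMP response element core TGACGTCA, which reads the same on both strands, was found in none of the 10 genes' windows and in 1.77% of all genes. These are matches of letters only.

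To determine whether the pathway differed between genotypes, hepatocyte counts were summed per mouse and tested with edgeR over 11810 genes. At an adjusted p under 0.05 no gene was called (0%), 698 genes had an unadjusted p under 0.05 (5.91%; 3.86% with the higher level in HNKO), and DESeq2 called 21 genes, none of them among the 10. Of the 10 genes, 6 passed the count filter and 4 (Asns, Psat1, Chac1 and Fgf21) did not. Among the 6, none passed an adjusted p of 0.05 and 1 (Ddit3) had an unadjusted p under it. Their median log2 fold change (HNKO over WT) was 0.24, beside 0.02 for all genes tested. All 3 HNKO mice lay above all 3 WT mice for 1 of the 6, beside 10.2% of all genes tested, and for none did all 3 HNKO mice lie below, beside 2.19%. After TMM scaling the same counts held for the 6 genes, beside a nearly even split of 6.37% above and 5.24% below over all genes.

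**Figure D1:**
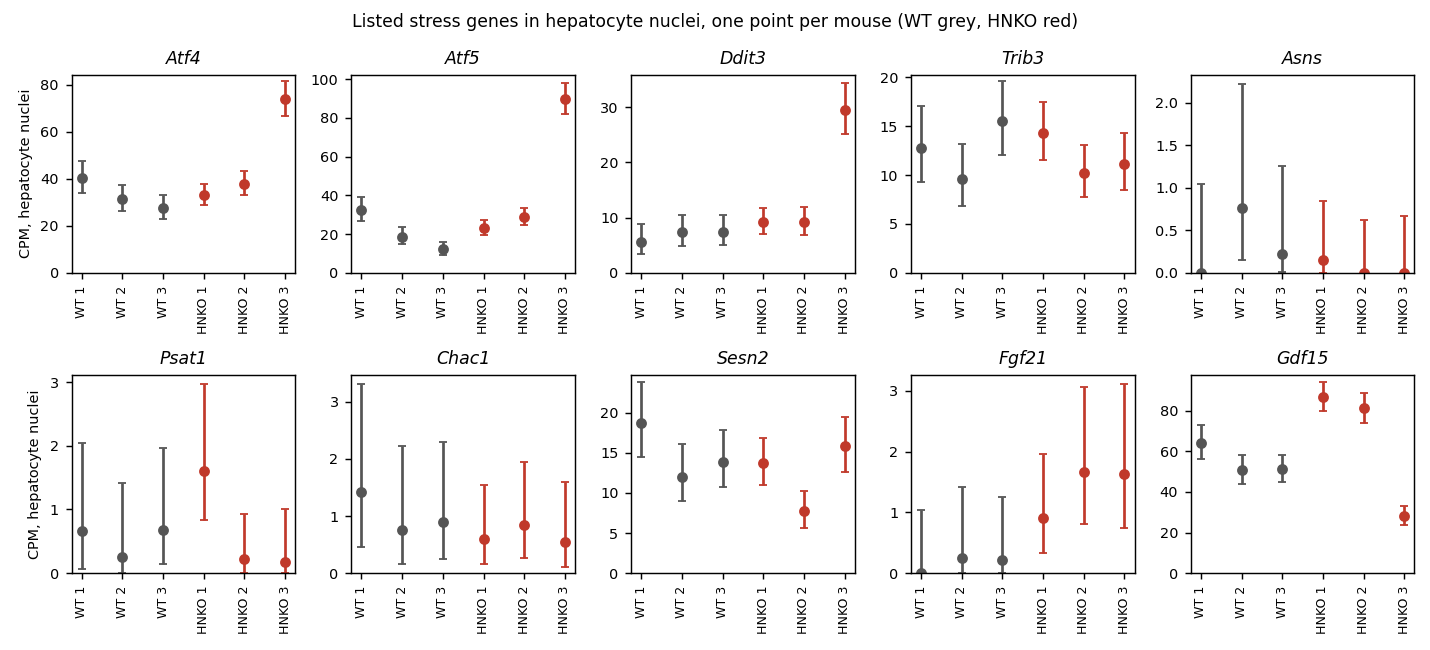
CPM of each of the 10 genes in the hepatocyte nuclei of each mouse (WT grey, HNKO red), with 95% Poisson intervals that cover counting error only. HNKO 3 stands far above the other mice for Atf4, Atf5 and Ddit3 and below them for Gdf15, while Fgf21 rests on 0 to 10 UMIs per mouse.

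Atf4, the central factor of the response (chr15:80255184-80257541, plus strand), had 40.3, 31.4 and 27.7 CPM in WT 1, 2 and 3. In HNKO 1, 2 and 3 it had 33.3, 37.9 and 73.9 CPM. The genotypes overlapped, with HNKO 1 and HNKO 2 inside the WT range and HNKO 3 above all other mice. The fitted log2 fold change was 0.33 ± 0.25 (SE; edgeR adjusted p = 0.838), and 0.09 without HNKO 3. After TMM scaling HNKO 3 still had the highest value, 57.6 CPM against 29.4 to 43.6 in the other 5 mice.

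Atf5 (chr7:44812256-44816658, minus strand) encodes the factor linked to the mitochondrial branch of the response. It had 32.6, 18.7 and 12.1 CPM in the WT mice and 23.2, 29.1 and 89.7 CPM in the HNKO mice. WT 1 lay above HNKO 1 and HNKO 2, so that the groups overlapped, and the WT mice alone differed beyond their counting intervals (26.9 to 39.2 CPM in WT 1 against 9.12 to 15.8 CPM in WT 3). The fitted log2 fold change was 0.89 ± 0.48 (SE; edgeR adjusted p = 0.82), and 0.29 without HNKO 3. Across the settings tried it ranged from 0.29 to 1.36, in the same direction each time. The Atf5 locus overlaps Nup62 and Il4i1, both annotated on the plus strand.

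Ddit3 encodes CHOP, a factor tied to cell death under prolonged stress (chr10:127290774-127296288, plus strand). It had 5.67, 7.34 and 7.42 CPM in WT and 9.19, 9.19 and 29.5 CPM in HNKO mice, from 20 to 162 UMIs per mouse. This was the single gene of the 6 whose groups did not overlap, also after TMM scaling. The distance was small apart from HNKO 3, since the counting intervals of HNKO 1 (7.03 to 11.8 CPM) and HNKO 2 (6.92 to 12 CPM) overlapped those of all 3 WT mice. The fitted log2 fold change was 0.96 ± 0.39 (SE; unadjusted p = 0.0399, edgeR adjusted p = 0.82), and 0.41 without HNKO 3 (unadjusted p = 0.116). Ddit3 shares its locus with Mars1 on the other strand, which had 2.92 to 5.39 CPM with overlapping genotypes (log2 fold change -0.09). The annotation also places Gm4189 on the other strand and a further entry named Ddit3 on the same strand. Estimated counts can be split between entries on the same strand.

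Trib3, a pseudokinase that is induced by ATF4 and CHOP and restrains them in turn (chr2:152337422-152344032, minus strand), had 12.8, 9.62 and 15.5 CPM in WT. The HNKO mice had 14.3, 10.2 and 11.1 CPM, all within the WT range. The fitted log2 fold change was -0.23 ± 0.30 (SE; edgeR adjusted p = 0.89), and -0.05 without HNKO 3. Trib3 was therefore not higher in the mouse in which Ddit3 and Atf5 were highest, at 11.1 CPM, or 8.66 CPM after TMM scaling, the lowest of the 6 mice on that scale.

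In HNKO 3 alone, Atf5 was 2.88 times, Ddit3 2.82 times and Atf4 1.61 times the mean of the other 5 mice after TMM scaling. Ratios as high as those of Atf5 and Ddit3 were found in 1.2% and 1.32% of the 11810 genes tested, and as high as that of Atf4 in 13.3%. Gdf15 stood at 0.313 times that mean, a ratio as low as in 3.48% of genes. The mouse was singled out after its values were seen, so these ratios describe it and carry no test.

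The enzymes that ATF4 is best known for in amino acid synthesis were near the limit of detection. Asns (asparagine synthetase; chr6:7675169-7693254, minus strand) had 5 UMIs in all hepatocyte nuclei, namely 0, 3 and 1 in WT and 1, 0 and 0 in HNKO mice. A count of 0 allowed up to 0.851 CPM in WT 1. Psat1 (phosphoserine aminotransferase of serine synthesis; chr19:15904678-15947337, minus strand) had 2, 1 and 3 UMIs in WT and 11, 1 and 1 UMIs in HNKO mice, so that HNKO 1 alone held most of them. No difference between genotypes was detectable for either gene at this depth.

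Chac1, which degrades glutathione (chr2:119351229-119354381, plus strand), had 5, 3 and 4 UMIs in WT mice and 4, 5 and 3 in HNKO mice. At 0.661 CPM over the pooled HNKO counts and 1.01 CPM over the pooled WT counts, the ratio was 0.658 with an exact interval of 0.270 to 1.60 for counting error. Sesn2, a leucine sensor that inhibits mTORC1 (chr4:132492032-132510501, minus strand), had 18.8, 12 and 13.8 CPM in WT and 13.7, 7.70 and 15.8 CPM in HNKO mice. The groups overlapped, and the fitted log2 fold change was -0.44 ± 0.30 (SE; edgeR adjusted p = 0.83), and -0.48 without HNKO 3. Sesn2 overlaps the annotated gene Gm12981 on the same strand, and estimated counts can be split between such genes.

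Fgf21, the hepatic hormone of fasting and amino acid shortage (chr7:45613886-45615490, minus strand), had 0, 1 and 1 UMIs in the 3 WT mice and 6, 10 and 9 UMIs in the 3 HNKO mice. Every HNKO mouse lay above every WT mouse, at 0.904, 1.67 and 1.64 CPM against 0, 0.253 and 0.225 CPM. Among the 26663 genes with at least 1 UMI in hepatocytes, 7.79% had all HNKO mice above all WT mice. Over pooled counts the HNKO level was 8.23 times the WT level, with an exact interval of 2.05 to 71.7 that covers counting error and not the spread between mice. Fitted without a count filter, the log2 fold change was 2.75 ± 0.84 (SE; unadjusted p = 0.00324, edgeR adjusted p = 0.313). In that edgeR fit 1607 of 26663 genes had an unadjusted p under 0.05, and so did 3 of the 10. The other members were Ddit3 (0.00724) and Atf5 (0.0159), which had 0.0399 and 0.102 with the filter. P-values of the 2 fits are therefore not compared. The Fgf21 UMIs came from 22 HNKO nuclei and 2 WT nuclei, at most 3 in a nucleus. In contrast to Atf5 and Ddit3, the 3 HNKO mice had similar values, and HNKO 3 did not stand apart.

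Gdf15 (chr8:70629393-70632456, minus strand), a stress hormone that acts on the brainstem, had the most UMIs of the 10 genes, 1871 in hepatocytes. It had 64.1, 50.6 and 51.3 CPM in WT mice and 86.8, 81.2 and 28.2 CPM in HNKO mice. HNKO 1 and HNKO 2 lay above every WT mouse, and HNKO 3 lay below every WT mouse. The counting intervals of HNKO 1 (79.9 to 94.2 CPM) and HNKO 2 (74.1 to 88.7 CPM) overlapped each other, and neither overlapped that of WT 1 (56.0 to 73.1 CPM). The fitted log2 fold change was 0.16 ± 0.46 (SE; edgeR adjusted p = 0.954). Without HNKO 3 it was 0.59 (unadjusted p = 0.0169, edgeR adjusted p = 0.98), and without HNKO 1 it turned to -0.20. Thus within the HNKO group Gdf15 and the pair Atf5 and Ddit3 were ordered in opposite ways, with HNKO 3 lowest for the former and highest for the latter.

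The share of hepatocyte nuclei with a UMI likewise placed HNKO 3 highest for Atf5 and Ddit3 and lowest for Gdf15. Atf5 was detected in 15.7, 9.82 and 7.76% of WT nuclei and in 15.9, 17.6 and 37.4% of HNKO nuclei. WT 1 thus lay below HNKO 1 and HNKO 2, whereas in CPM it lay above both. HNKO nuclei were deeper, with a median of 4800 to 5786 UMIs against 3572 to 4162 in WT. With every nucleus thinned to 1000 UMIs, which left out no nucleus, Atf5 was detected in 1.22 to 3.74% of nuclei in the other 5 mice and in 8.85% in HNKO 3 (exact binomial interval 7.03 to 11%). WT 1, at 3.74%, then again lay above HNKO 1 (2.96%) and HNKO 2 (3.17%). For Ddit3 the thinned shares were 0 to 0.616% in the other 5 mice and 2.36% in HNKO 3. For Gdf15 they were 5.05 to 6.76% in WT, 8.13 and 8.79% in HNKO 1 and HNKO 2, and 3.54% in HNKO 3. For Fgf21 they were 0 to 0.244% in all 6 mice, and no difference was detectable at that depth.

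The genes were next followed across the 13 hepatocyte clusters. The clusters had been made by the authors from all genes of these nuclei, and 9 of them drew over 90% of their nuclei from 1 mouse, so that levels across clusters are given as a description. Atf4 ran from 18.9 CPM in Central HNKO 1 to 80.2 CPM in HNKO 2, with a median of 37.0 CPM. Atf5 ran from 10.2 CPM in Hepatocytes 3 to 105 CPM in HNKO 3 (median 28.7), and Ddit3 from 3.32 CPM in Hepatocytes 4 to 30.6 CPM in HNKO 3 (median 8.82). Cluster names such as HNKO 3 are the authors' and differ from the mice of the same name.

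The 3 clusters made of nuclei from the mouse HNKO 3 were the ones with the highest Atf5 and Ddit3. In the clusters HNKO 2, HNKO 3 and Central HNKO 2, Atf5 stood at 79.9, 105 and 87.9 CPM and Ddit3 at 28.7, 30.6 and 30.1 CPM. In the other 10 clusters the highest values were 48.8 CPM for Atf5 and 10.3 CPM for Ddit3. The higher level was thus present in the pericentral as well as in the other nuclei of this mouse. For Atf4 this was different, since Central HNKO 2 had 37.0 CPM (exact Poisson interval 21.2 to 60.1) against 80.2 and 68.6 CPM in the other 2 clusters.

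**Figure D2:**
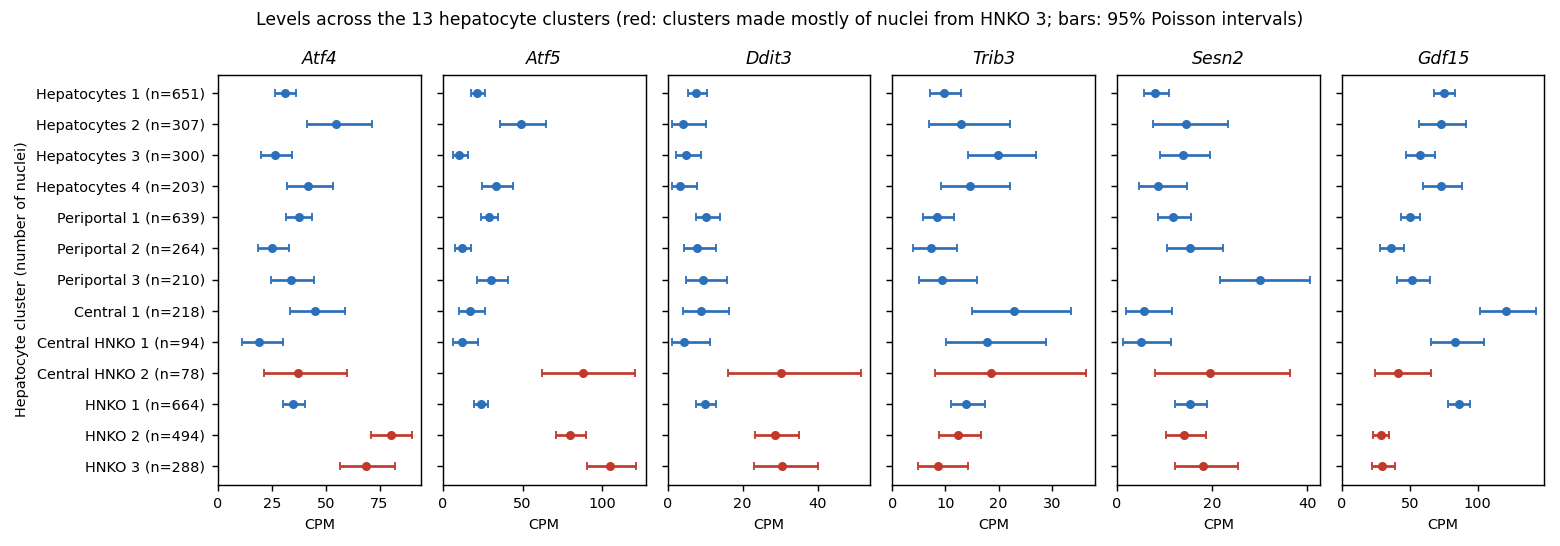
CPM of 6 genes in each of the 13 hepatocyte clusters with 95% Poisson intervals, and the number of nuclei beside each cluster name. Clusters made mostly of nuclei from the mouse HNKO 3 (red) lead for Atf5 and Ddit3 and have the lowest Gdf15 apart from Periportal 2, at 28.7, 30.0 and 41.6 CPM.

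Hepatocytes 2 was a cluster shared by 5 mice, with 37 to 97 nuclei in each, and could be set against the other hepatocytes of the same mouse. Its nuclei held 2213 to 3304 UMIs (medians) and 64.6 to 69.0% unspliced UMIs, beside 3716 to 5975 UMIs and 78.0 to 80.9% in the other nuclei. In the order WT 1, 2, 3, HNKO 1, 2, Atf5 had 46.9, 46.8, 38.5, 52.4 and 50.7 CPM in this cluster and 31.4, 17.3, 11.2, 22.5 and 28.3 CPM outside it. Atf5 was higher inside the cluster in 5 of 5 mice, although with 6 to 13 UMIs each the 2 counting intervals overlapped in each of them. Atf4 was likewise higher in 5 of 5 mice, at 44.9 to 73.7 CPM against 27.0 to 39.7 CPM, with intervals apart in HNKO 2 (42.1 to 120 and 31.8 to 41.9 CPM). Ddit3 was lower inside the cluster in 5 of 5 mice, at 0 to 6.55 CPM against 5.85 to 9.36 CPM, from 0 or 1 UMI each and with overlapping intervals. Gdf15 was higher inside it in 3 mice and lower in 2. Whether depth or the lower unspliced share of these nuclei played a part was not tested.

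Liver lobules are zoned, and hepatocytes around the central vein, which express glutamine synthetase (Glul), differ in metabolism from those around the portal vein. Within each mouse the pericentral clusters (39 to 100 nuclei) were set against the remaining hepatocytes. Glul was 992 to 1620 CPM in the former and 21.1 to 67.7 CPM in the latter. Gdf15 had 84.6, 113 and 104 CPM in the pericentral clusters of the WT mice against 62.5, 48.0 and 47.6 CPM in their other hepatocytes. In HNKO 1, 2 and 3 the pair of values was 84.0 and 87.3, 159 and 75.5, and 41.6 and 27.1 CPM. Gdf15 was thus higher pericentrally in 5 of 6 mice, from 18 to 65 pericentral UMIs in each of them, and HNKO 1 was the exception. The counting intervals of the pair lay apart in WT 2, WT 3 and HNKO 2 and overlapped in WT 1 and HNKO 3. Pericentral nuclei of WT 2, HNKO 2 and HNKO 3 had 72.1, 74.3 and 76.6% unspliced UMIs, beside 77.4, 78.4 and 78.6% in all their hepatocytes. Their median UMIs were 2574, 3762 and 3997, beside 3572, 5175 and 4800. WT 1 (79.0 and 77.9%), WT 3 (78.1 and 78.9%) and HNKO 1 (81.7 and 80.6%) were closer. Whether depth or unspliced share played a part in the pericentral comparisons of any gene was not tested.

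Trib3 was higher in the pericentral clusters of 6 of 6 mice, at 18.5 to 27.8 CPM against 8.97 to 14.7 CPM. Only 4 to 17 UMIs stood behind each pericentral value, and the 2 intervals overlapped in every mouse. Sesn2 was lower pericentrally in 5 of 6 mice, with HNKO 3 the exception (19.7 against 15.5 CPM), from 19 pericentral UMIs in all. Its highest level over clusters was 30.1 CPM in Periportal 3. Atf4 was higher pericentrally in 3 mice and lower in 3, so that no common direction was seen. Asns and Chac1 had no UMI in the pericentral clusters.

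**Figure D3:**
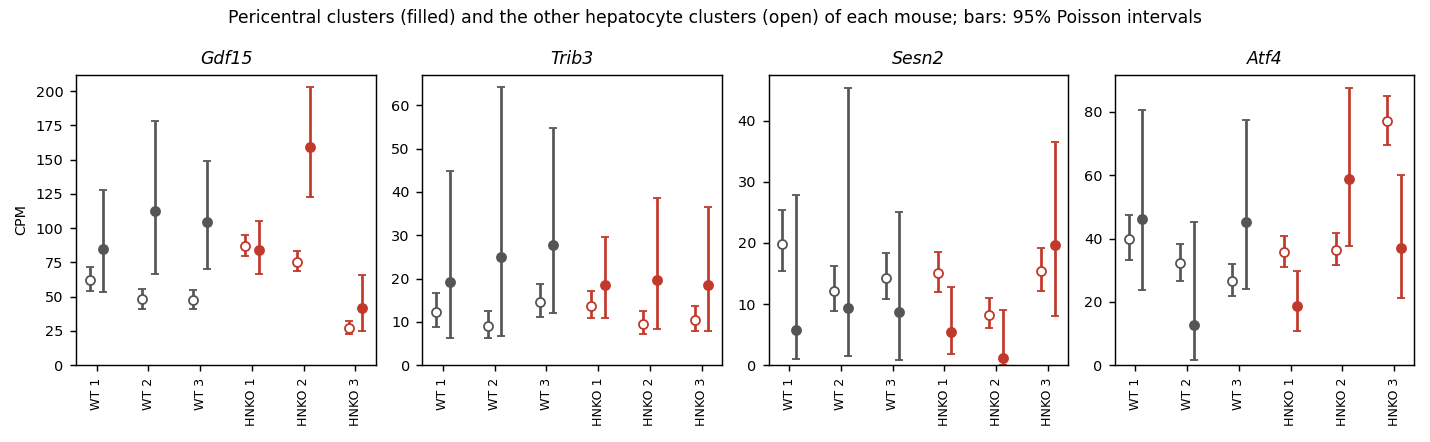
CPM of Gdf15, Trib3, Sesn2 and Atf4 in the pericentral clusters (filled) and in the other hepatocyte clusters (open) of each mouse (WT grey, HNKO red), with 95% Poisson intervals. Gdf15 is higher in the pericentral nuclei of 5 of 6 mice and Trib3 in 6 of 6.

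Among the 5 genes whose pattern over the 13 clusters was most like that of Gdf15, by Pearson correlation of log2(CPM + 1) among 5844 other genes with at least 500 UMIs, were Jun (r = 0.927), 9330111N05Rik (0.920), Irs2 (0.895) and Tmem243 (0.886). The clusters share mice and depth, and these correlations describe 13 points.

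In the other liver cell types the 10 genes rested on few UMIs. Asns had 3 UMIs in cholangiocytes (4.53 CPM, exact interval 0.933 to 13.2), beside 0.166 CPM (0.0540 to 0.388) in hepatocytes. Endothelial, stellate, Kupffer and CD45+ cells had 0 UMIs of it. Hepatocyte markers were counted in the nuclei of the other types too. Albumin (Alb) had 12.5% of its hepatocyte level in cholangiocytes, 18.2% in stellate cells, 18.4% in Kupffer cells, 27.6% in endothelial cells and 41.7% in CD45+ cells, and over all 7 hepatocyte markers the shares ran from 4.42 to 34.0%, 9.42 to 21.3%, 12.2 to 31.4%, 26.4 to 35.9% and 30.1 to 54.9% in these types. These ranges give the level at which hepatocyte RNA was counted in each type. Gdf15 stood at 4.64% of its hepatocyte level in stellate cells (2 UMIs) and 16.1% in Kupffer cells (3 UMIs). It stood at 33.9% in cholangiocytes (exact interval 18.5 to 56.9%), 44.1% in endothelial cells (28.8 to 64.6%) and 77.7% in CD45+ cells (53.1 to 110%). In none of the 5 types did its interval over all mice lie above the range of the hepatocyte markers. These counts are therefore not read as expression of Gdf15 in stellate, Kupffer or endothelial cells or cholangiocytes. For CD45+ cells the interval met that range only at its top marker, Apoa1 (54.9%). Without HNKO 3, CD45+ cells had 64.2 CPM of Gdf15 (43.9 to 90.7) beside 69.9 CPM in hepatocytes. Marker shares were not taken without HNKO 3, so the counts do not decide it for CD45+ cells. Of the 32 Gdf15 UMIs in CD45+ cells 21 came from HNKO 1.

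Atf4 stood at 68.9 to 117% of its hepatocyte level of 41.4 CPM in the other types. It had 28.5 CPM in endothelial cells, 30.2 in CD45+ cells, 40.1 in Kupffer cells, 41.9 in stellate cells and 48.3 CPM in cholangiocytes, and the intervals of these neighbours overlapped. Without HNKO 3 hepatocytes had 34.1 CPM of Atf4 and the other types 24.0 to 48.7 CPM. Atf5 had 13 CPM in stellate cells (interval 5.95 to 24.7) and 19 CPM in endothelial cells (11.3 to 30.1), beside 35.4 CPM in hepatocytes, of which HNKO 3 gave 493 of 1064 UMIs. These were 36.7% (16.8 to 69.7%) and 53.7% (31.8 to 84.8%) of the hepatocyte level. Both intervals met the ranges of the hepatocyte markers, so these counts over all mice are not read as Atf5 expression in either type. Without HNKO 3 hepatocytes had 23.3 CPM of Atf5 (21.4 to 25.3), stellate cells 7.18 CPM (1.96 to 18.4) and endothelial cells 17.7 CPM (9.68 to 29.7), so that the endothelial interval then held the hepatocyte level. Ddit3 lay between 6.68 and 13.6 CPM in all types, beside 12 CPM in hepatocytes. Without HNKO 3 hepatocytes had 8.07 CPM of Ddit3 (6.98 to 9.27) and the other types 8.85 to 16.2 CPM, each with an interval that held the hepatocyte level. Fgf21 had 27 UMIs in hepatocytes and 1 in all other types. Hepatocytes held 30041001 UMIs in all and the other types 299489 to 946786 each, so these counts cannot show whether Fgf21 was confined to hepatocytes. Over all non-hepatocyte nuclei together, Atf5 was also highest in HNKO 3, at 34.3 CPM (23.3 to 48.7). The other 5 mice had 3.97 to 26.4 CPM. The HNKO 3 interval overlapped those of WT 1 (4.50 to 42.3), WT 2 (9.70 to 57.5) and HNKO 2 (6.77 to 30.9). It lay above those of WT 3 and HNKO 1. Atf4 stood at 54.2 CPM in HNKO 3 (40.1 to 71.6) against 23.8 to 41.2 CPM, with an interval apart only from that of HNKO 1 (16.5 to 35.9). HNKO 3 hepatocytes had 89.7 CPM of Atf5. Whether hepatocyte RNA counted in these nuclei played a part was not tested. Ddit3 had 11.1 CPM in the non-hepatocyte nuclei of HNKO 3, inside the 3.97 to 13.3 CPM of the other mice. None of the 10 genes passed the count filter in endothelial or stellate cells, where edgeR called 0 of 2743 and 0 of 2266 genes (104 and 160 at an unadjusted p under 0.05, and 1 and 1 by DESeq2).

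**Figure D4:**
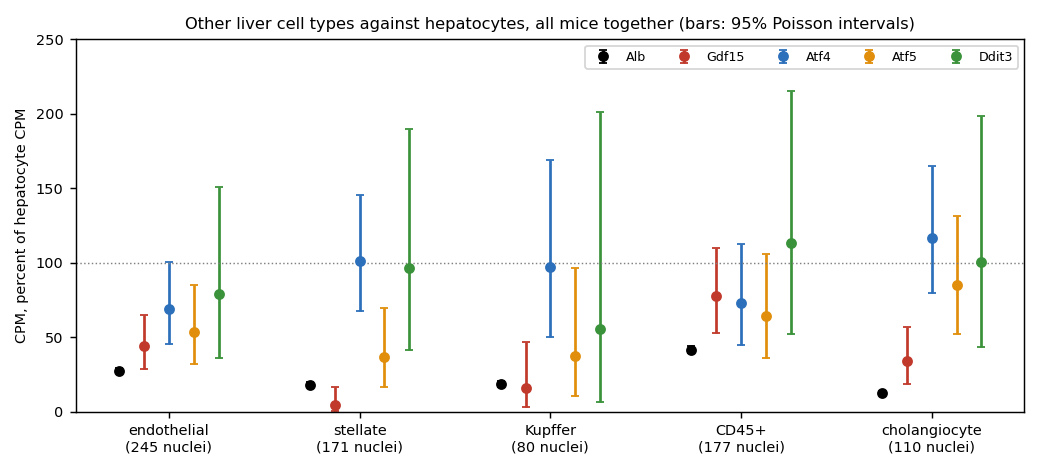
CPM in 5 other cell types as a percent of the hepatocyte CPM, all mice together, with 95% Poisson intervals. Alb (black) is 1 of the 7 hepatocyte markers, whose shares span a wider range than its own. Gdf15 lies lowest in stellate cells, at 4.64%, and the intervals of the other genes are wide.

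Further genes of the pathway were examined through 9 lists of its upstream kinases, partner factors, targets and hormone receptors. Of 122 listed genes, 108 were tested and none passed an adjusted p of 0.05 in either direction. At an unadjusted p under 0.05, 2 were higher (Slc1a4 and Fgfr3) and 3 were lower in HNKO mice (Ppp1r15b, Aldh18a1 and Fgfr1), beside the 5.91% of all genes. The median log2 fold change of the lists ran from -0.18 for amino acid transporters to 0.14 for cytosolic aminoacyl-tRNA synthetases, beside 0.02 for all genes tested.

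Upstream, 17 of 18 genes for eIF2α kinases, phosphatase subunits and eIF2 or eIF2B subunits were tested (median log2 fold change 0.02). Ppp1r15b, the constitutive subunit that directs eIF2α dephosphorylation, had 21.8, 21.5 and 27.0 CPM in WT and 13, 21.4 and 21.5 CPM in HNKO mice, so that the groups did not overlap by a margin of under 1 CPM (log2 fold change -0.52 ± 0.22 (SE), edgeR adjusted p = 0.82). Eif2s3x, a subunit of eIF2, had 18 to 19.9 CPM in WT and 20.5 to 24.4 CPM in HNKO mice, but overlapped between genotypes after TMM scaling. Of the kinases, Eif2ak3 (PERK) had 42.0, 35.7 and 57.6 CPM in WT and 93.6, 45.3 and 69.5 CPM in HNKO mice, which overlapped.

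Among the partner factors, 9 of 11 were tested (median 0.04). Nfe2l2, the factor of the antioxidant response, had 117, 121 and 123 CPM in WT and 130, 150 and 357 CPM in HNKO mice, without overlap (log2 fold change 0.58 ± 0.28 (SE), edgeR adjusted p = 0.82). Atf3 had 44.3, 54.4 and 34.2 CPM in WT and 148, 87.0 and 28.4 CPM in HNKO mice, with HNKO 3 lowest as for Gdf15. After TMM scaling HNKO 3 held the highest value of the 6 mice for 3 of these 9 genes and the lowest for the other 6, beside 29.3% and 26.9% of all genes tested. Across the other lists HNKO 3 was lowest for 11 of 19 genes of the endoplasmic reticulum branch, 6 of 11 of amino acid synthesis, 6 of 10 transporters, 5 of 13 mitochondrial chaperones and proteases, 4 of 17 upstream genes, 3 of 12 synthetases, 3 of 12 other targets and 3 of 5 receptors. It was highest for 2, 1, 3, 0, 3, 3, 5 and 1 of them, in the same order.

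Of 11 tested genes of serine, one-carbon and amino acid synthesis (median -0.01), Aldh18a1, which makes a precursor of proline, had 25.5, 24.8 and 20.2 CPM in WT and 15.5, 17.0 and 8.19 CPM in HNKO mice. Its groups did not overlap (log2 fold change -0.90 ± 0.36 (SE), edgeR adjusted p = 0.82). Phgdh, the entry enzyme of serine synthesis, had at most 2.84 CPM in any mouse. Among 10 tested amino acid transporters none separated the genotypes on the CPM scale, beside 10.2% above and 2.19% below over all genes, and 1 (Slc38a2) did so after TMM scaling, lower in HNKO, beside 5.24% of all genes. Slc38a2 had 322 to 472 CPM in WT and 302, 334 and 82.8 CPM in HNKO mice.

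All 12 cytosolic aminoacyl-tRNA synthetases, a group of ATF4 targets that charge tRNAs, were tested, and 3 had all HNKO mice above all WT mice (25%, beside the 10.2% of all genes). They were Wars (2.84 to 5.62 CPM in WT, 6.35 to 8.37 CPM in HNKO), Gars (8.54 to 9.62 and 10.1 to 17.7 CPM) and Yars (31.1 to 34.4 and 37.7 to 47.1 CPM). After TMM scaling 2 of the 12 remained apart, beside 6.37% of all genes, and Yars overlapped. None of the 3 had an adjusted p under 0.82 by edgeR.

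The mitochondrial chaperones and proteases (13 of 14 tested, median -0.05), the endoplasmic reticulum genes of the ATF6 and XBP1 branch (19 of 20, median 0.05) and the other ATF4 and CHOP targets (12 of 16, median -0.12) held no gene whose genotypes did not overlap in CPM, beside 10.2% above and 2.19% below over all genes. After TMM scaling 1 of them, Atg5 of the other targets, lay lower in all HNKO mice (log2 fold change -0.25 ± 0.15 (SE), edgeR adjusted p = 0.82), beside 5.24% of all genes. Hspd1, the mitochondrial chaperonin, had 35.2 to 49.6 CPM in WT and 25.6 to 57.1 CPM in HNKO mice. Hspa5, the chaperone BiP of the endoplasmic reticulum, had 47.6 to 61.2 CPM in WT and 110, 52.0 and 46.9 CPM in HNKO mice, with HNKO 1 alone above the WT range.

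Of the receptors for the 2 hormones, 5 of 7 were tested (median 0.03). Fgfr1, a receptor that binds FGF21 together with β-Klotho, had 9.08, 9.11 and 15.5 CPM in WT and 6.03, 7.18 and 5.46 CPM in HNKO mice, without overlap (log2 fold change -1.0 ± 0.32 (SE), unadjusted p = 0.0140, edgeR adjusted p = 0.82). Klb, which encodes β-Klotho, had 329, 291 and 119 CPM in WT and 101, 217 and 93.5 CPM in HNKO mice, which overlapped (log2 fold change -0.98 ± 0.48 (SE), edgeR adjusted p = 0.82).

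**Figure D5:**
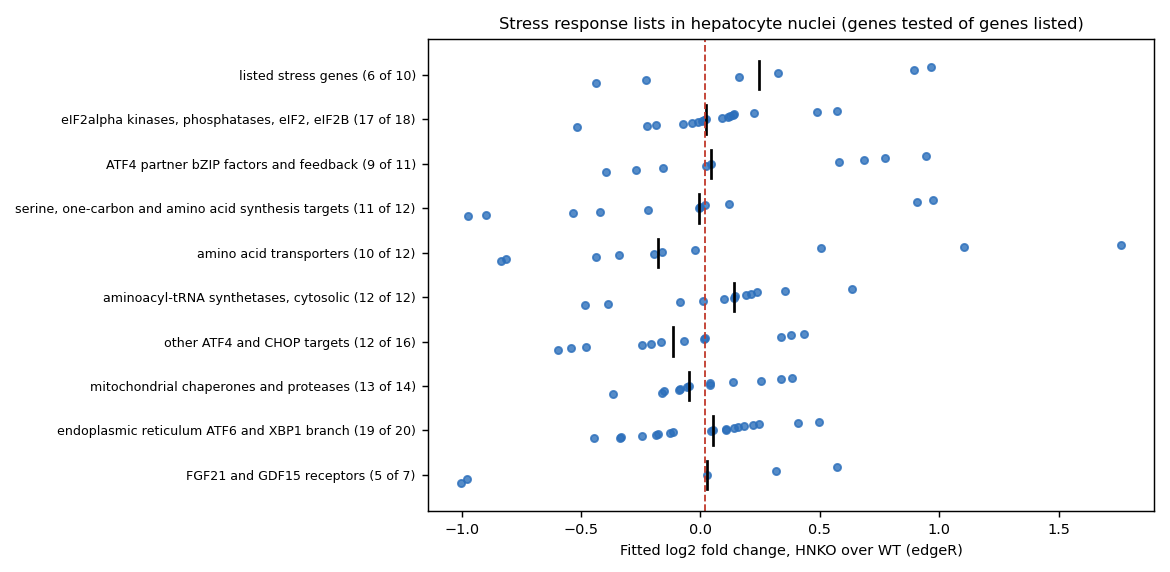
Fitted log2 fold change (HNKO over WT) of each tested gene in the 10 lists, one point per gene, with the median of each list as a black bar and that of all 11810 genes tested (0.02) as a dashed line. The medians lie between -0.18 and 0.24, and the points of each list lie on both sides of 0.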

How the data were processed

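The authors quantified 10x Genomics 3′ (version 3.1) snRNA-Seq reads with Alevin on GRCm38 and deposited estimated counts (expected counts) of UMIs per gene and nucleus, of which 10.1% of nonzero values were not whole. The submitters' processing notes also name Cell Ranger 5.0.1. Introns were counted. The authors removed nuclei without a single hashtag call, and deposited the hashtag counts, used here to give each mouse's share of its own hashtag, with a table of mouse, genotype and cluster per nucleus (clustering resolution 1.2). Their corrected matrix was not used, and no doublet caller was run.

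Counts were summed per mouse over the 13 hepatocyte clusters (3524497 to 6635290 UMIs), rounded, and tested with edgeR 4.0.16 in R 4.3.3 (filterByExpr, TMM, quasi-likelihood F test, genotype alone, two-sided, Benjamini-Hochberg over all genes tested, threshold 0.05). DESeq2 1.42.0 was an alternative. The mouse was the replicate (n = 3 per genotype), and p-values measure the spread between these mice. With 3 mice against 3 an exact permutation test could not go below p = 0.1 and was not run. CPM are per 1000000 UMIs of a sum, before TMM unless stated. Intervals of 95% (exact Poisson or binomial, scipy 1.17.1) cover counting error only, and the limit for a count of 0 is 3 UMIs. On simulated sums of 11810 genes with 200 changed at log2 2, 87.5% were recovered. Recovery of smaller changes, such as the 0.96 fitted for Ddit3, was not simulated. Positions are from GENCODE M21 and start sites from RefSeq, both on GRCm38.

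The 10 genes, the further lists and the tests were chosen with earlier results of these data known. All 10 genes are named, and of each further list every gene past the adjusted p and the 3 with the largest change among those whose genotypes do not overlap. Genes named beside these (Mars1, Eif2ak3, Atf3, Phgdh, Slc38a2, Atg5, Slc1a4, Hspd1, Hspa5, Klb and Fgfr3) and the mouse HNKO 3 were singled out after their values were seen. Of the 5 genes most like Gdf15 over clusters, 1 is not reported here.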

Additional observations from a re-analysis of the deposited data

How the results depend on the processing

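None of the 10 genes passed an adjusted p of 0.05 under any of the 15 alternatives, whereas the number of all genes called was 21 with DESeq2, 35 without a count filter and 0 to 32 when 1 mouse was left out (32 without HNKO 2), against 0 by edgeR. DESeq2 called 1 gene in endothelial and 1 in stellate cells, against 0 and 0. The cause was not tested. Atf5, Ddit3, Trib3 and Sesn2 kept their direction in all 14 alternatives that gave a value. Atf5 ranged from 0.29 to 1.36 and Ddit3 from 0.41 to 1.2, both lowest without HNKO 3. Atf4 ranged from -0.11 to 0.50 and turned to -0.11 with the pericentral clusters only, a setting added after seeing the data. Gdf15 ranged from -0.20 to 0.59 and turned to -0.20 without HNKO 1, to -0.01 without HNKO 2 and to -0.14 in the pericentral clusters only. Asns, Psat1, Chac1 and Fgf21 gave a value only without the count filter. Fits on 1 RNA pool at a time were not run, since neither barcodes nor the table mark the pool. No paired analysis was possible because the mice carry only hashtag names and no label pairs a WT mouse with an HNKO mouse.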
